A study of Mus musculus with 3 samples.

Results

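Amino acid transporter genes of mouse blastocysts were taken as every gene on the array whose symbol belonged to the solute carrier families Slc1, Slc3, Slc6, Slc7, Slc36, Slc38 or Slc43. The rule used names alone and no measured value, and it found 64 genes, read by 91 probes, among 20027 genes named through a RefSeq mRNA accession. Of the 64 genes, 63 coded for carriers or their heavy chains, and the remaining gene, Slc7a6os, lies opposite to Slc7a6 and codes for no carrier. The families held 7 genes for Slc1, 2 for Slc3, 21 for Slc6, 15 for Slc7, 4 for Slc36, 11 for Slc38 and 3 for Slc43.

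The study placed blastocysts of aging mice beside those of young mice and asked what blocking the chemokine CXCL5 and its receptor CXCR2 did to the aging ones. Per the sample labels, zygotes were collected from superovulated and mated ICR females, although the study's methods also describe fertilization in vitro. They were grown for 96 h in KSOM, a mouse embryo culture medium. The mothers of the young embryos were 3 to 6 weeks old and those of the aging embryos 43 to 53 weeks old, and neither group was treated. Suppressed aging embryos had mothers of 43 to 53 weeks too and were grown with 10 μg/ml of a neutralizing antibody against CXCL5 and 10 nM of a selective CXCR2 antagonist. The ages are those of the mothers, no young embryos with the inhibitors were on an array, and antibody and antagonist were given together. Each condition was 1 pool of 30 blastocysts on 1 single-colour array, so no test between conditions was possible, no P-value was computed and no error between embryos can be given. In a pool of whole embryos, fewer cells of a type and less RNA per cell cannot be told apart.

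Amino acid carriers move amino acids across the plasma membrane or out of the lysosome. Some ride on the sodium gradient, as in families Slc1, Slc6 and Slc38, and some are coupled to protons, as are members of Slc36. The light chains of family Slc7 exchange amino acids once they are bound to a heavy chain of family Slc3. Preimplantation embryos use glycine, betaine, proline and taurine as organic osmolytes, and uptake of leucine and arginine has been tied to the onset of trophectoderm spreading at implantation. Amino acids are also sensed at the lysosome, where several carriers of these families signal to the growth kinase complex mTORC1.

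Levels are given as log2 intensity minus the 75th percentile of the same array, so that a level of 0 corresponds to an intensity of 145 (young array), 155 (aging array) or 122 (suppressed aging array). A gene was read by its probe with the highest mean level, and levels of different genes were not set against each other because each probe binds with its own strength. A probe counted as detected where the scanner software called it well above background. Where it was detected on only 1 of a pair of arrays, the difference is a bound, written as "at least", against the detection limit of the dimmer array, which lay at a level of -4.20, -4.32 and -3.93 for young, aging and suppressed aging. The error given with a difference (±) is the one the scanner software assigned to both spots, combined, and covers the spot and the scan at most. Each transporter probe had 1 spot, so this error was not measured from repeated spots. For bright spots it was nearly constant, at 0.14 per spot.

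The pools were checked against markers of the embryo and of other cells that they could hold. All 7 trophectoderm, 5 inner cell mass and 4 primitive endoderm markers were detected on all 3 arrays. The summed level of the inner cell mass markers was 9.98 in young, 10.25 in aging and 10.14 in suppressed aging, and that of the trophectoderm markers was 8.95, 8.55 and 8.79. Single inner cell mass genes differed more, with a median of 1.11 for aging minus young. The primitive endoderm markers had summed levels of 3.99, 4.25 and 3.99 and a median of 0.47 for aging minus young. Of these, Gata6 (0.99) and Pdgfra (1.28) were higher in aging, and Sox17 (-1.53) and Gata4 (-0.04) lower. Of 7 oocyte markers, 4, 5 and 3 were detected, at summed levels of -0.54, 0.92 and -0.45, and their median for aging minus young was 2.08. Bmp15 (a bound of 2.95), Zp2 (2.35) and Zp3 (2.08) were higher in aging, Gdf9 and Nlrp5 were within 2-fold, and Zp1 and Oosp1 were not detected on any array. Of 8 cumulus and granulosa markers, 3 were detected on each array, at summed levels of 8.66, 8.55 and 8.78 that were carried by Foxl2, and Fshr, Has2, Inhba, Ptx3 and Tnfaip6 were not detected. Of 3 blood markers, 2, 2 and 1 were detected, at summed levels of -0.09, 0.65 and -1.04, without Ptprc, which marks leukocytes. Hba-a1 was higher in aging than in young (0.91) and Alas2 lower (-0.77). The summed levels of the inner cell mass, primitive endoderm, oocyte and blood markers were thus highest on the aging array, and their part in the differences below was not tested.

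Detection differed between the families. Of the 64 genes, 38 (59.4%) were detected on all 3 arrays, 8 on some of them and 18 (28.1%) on none, against 64.4% and 24.6% of all named genes. All 3 Slc43 genes were detected throughout, as were 8 of 11 Slc38 genes and 5 of 7 Slc1 genes. Families Slc7 and Slc6 were detected on all arrays for 8 of 15 and 11 of 21 genes, and family Slc36 for 1 of 4.

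The undetected members included carriers best known from nerve, kidney and gut. Among them were the glial and retinal glutamate carriers Slc1a2 and Slc1a7, the dopamine carrier Slc6a3, the neuronal glycine carrier Slc6a5, the GABA carrier Slc6a11, the kidney and gut carriers Slc6a18, Slc6a19 and Slc6a20b, and Slc6a21. They also included the light chains Slc7a10, Slc7a11, Slc7a12, Slc7a13 and Slc7a15, the Slc36 carriers Slc36a2 and Slc36a4, and the glutamine carriers Slc38a3 and Slc38a5. Slc7a11, the cystine importer that feeds glutathione synthesis, was undetected with both of its probes. By array, 41 of the genes were detected in young, 44 in aging and 44 in suppressed aging. Carriers known from nerve were also among the genes detected on all 3 arrays, such as Slc6a2, Slc6a4, Slc6a15 and Slc6a17.

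**Figure D1:**
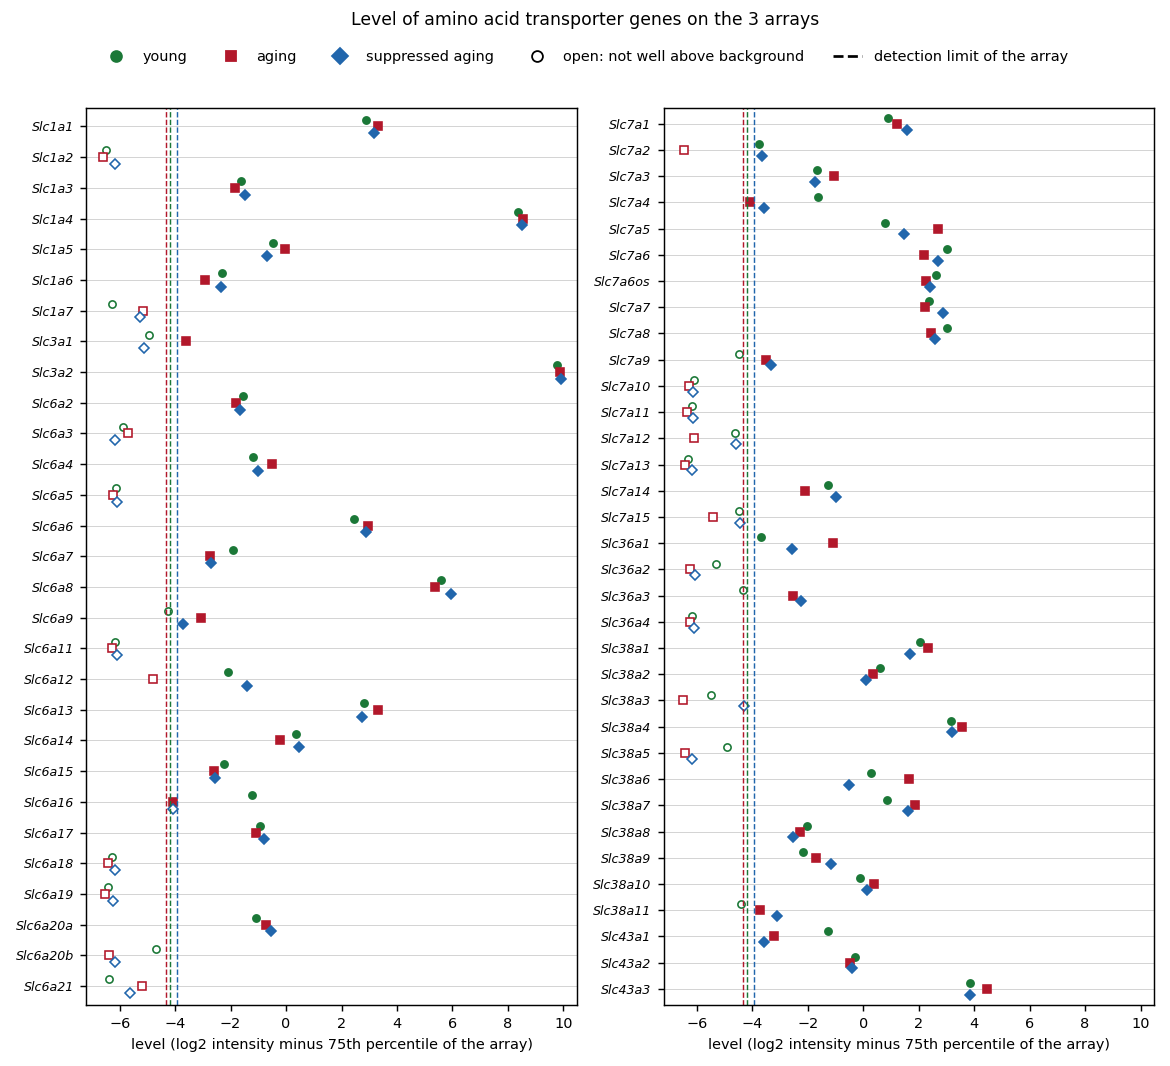
Level of 63 of the 64 amino acid transporter genes (log2 intensity minus the 75th percentile of the array, horizontal axis) on the young (green circles), aging (red squares) and suppressed aging (blue diamonds) array. Open symbols were not well above background and dashed lines mark the detection limit of each array. Symbols of 1 gene can be compared with each other, and those of different genes cannot. For 37 of the genes drawn all 3 symbols are filled.

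In aging against young blastocysts, most transporter genes lay close together and a small number lay far apart. Of 46 genes compared, 7 of them by a bound, 25 had the higher level on the aging array and 21 the lower one, and the median log2 difference was 0.15 against 0.04 over all genes. More than 2-fold apart were 10 genes, or 21.7%, against a background of 18.8% of 14749 genes. Higher by more than 2-fold were 6 genes (Slc7a5, Slc36a1, Slc36a3, Slc38a6, Slc38a7 and Slc6a9), where 9.93% of all genes were, and lower were 4 (Slc6a12, Slc6a16, Slc7a4 and Slc43a1), where 8.88% were. More than 5-fold apart were 3 genes, or 6.52%, against 2.51% of all genes. Of these, Slc36a1 was higher, where 1.3% of all genes were, and Slc6a16 and Slc7a4 were lower, where 1.21% were. The shares of members lay near the background at 2-fold, so the count itself is no result about transporters. At 5-fold the share was above the background but rested on 3 genes. With normexp background correction, which adds an offset of 50 to every intensity, the same 10 genes kept their direction but only 3 stayed over 2-fold, namely Slc7a5, Slc38a6 and Slc6a16. The number over 5-fold apart was then 0.

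In suppressed aging against aging blastocysts, 45 genes were compared, 3 of them by a bound, of which 24 had the higher level after suppression and 21 the lower one, and the median was 0.04 against -0.00 over all genes. Over 2-fold apart were 5 genes, or 11.1%, against a background of 17.2%. Higher were Slc6a12 and Slc7a14, where 8.76% of all genes were higher, and lower were Slc7a5, Slc36a1 and Slc38a6, where 8.42% were lower. The bound of Slc6a12 was the only difference over 5-fold, against 2.22% of all genes in either direction and 1.34% in this one. Since both comparisons use the aging array, a high or low spot there moves both in opposite directions, and their values are given side by side without any measure of agreement. Slc7a5 and Slc38a6 stayed over 2-fold with normexp correction.

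In suppressed aging against young blastocysts, 45 genes were compared, 5 of them by a bound. Of these, 7 or 15.6% were over 2-fold apart, against a background of 16.1%. Slc36a1, Slc36a3, Slc38a9 and Slc38a11 were higher and Slc6a16, Slc7a4 and Slc43a1 lower. The shares of all genes past 2-fold were 8.82% higher and 7.32% lower. Slc6a16 and Slc43a1, or 4.44% of the members compared, were over 5-fold lower, where 0.914% of all genes were lower and 2.27% apart in either direction. None of the 7 stayed over 2-fold with normexp correction, although all kept their direction.

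**Figure D2:**
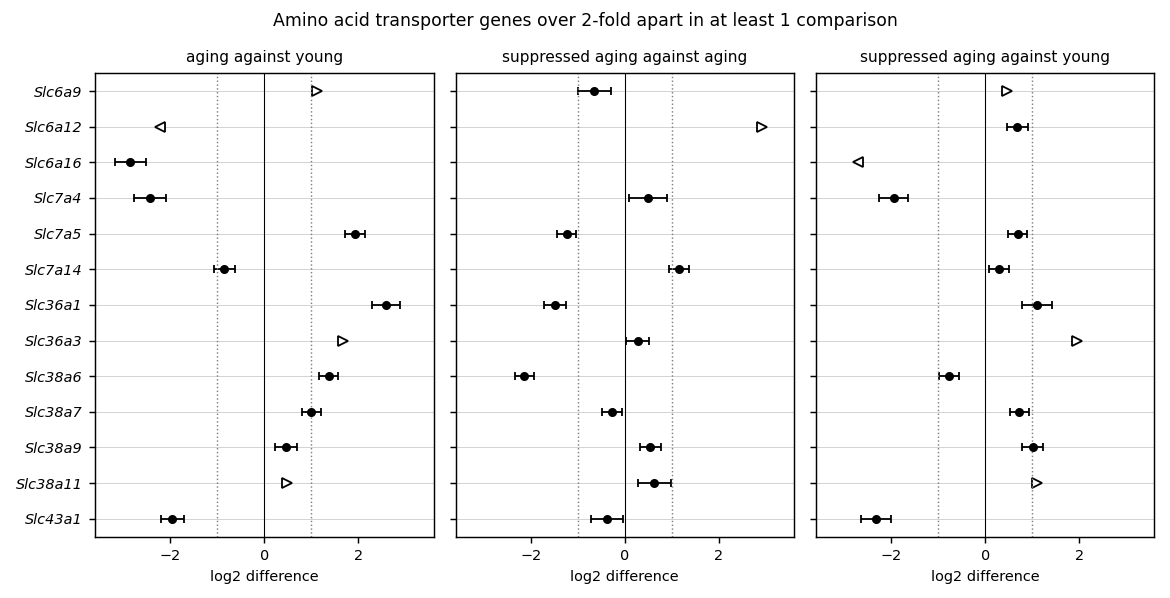
Log2 difference (horizontal axis) of the 13 transporter genes over 2-fold apart in at least 1 comparison, for aging minus young (left), suppressed aging minus aging (middle) and suppressed aging minus young (right). Points with bars are differences with the combined scanner error, open triangles are bounds that point away from 0, and dotted lines mark 2-fold. Slc7a5, Slc36a1 and Slc38a6 lie right of the line on the left and left of it in the middle. Slc6a16 has no value in the middle because its aging level lay under the detection limit of the suppressed aging array.

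Glutamate carriers of family Slc1 were steady across the 3 pools. Slc1a1, the neuronal and epithelial glutamate and cysteine importer, had levels of 2.90 in young, 3.33 in aging and 3.17 in suppressed aging. Slc1a3 had levels of -1.62, -1.84 and -1.50 in the same order, and Slc1a6 -2.33, -2.91 and -2.36. In no pair of pools were these 3 genes over 2-fold apart. The neutral exchanger Slc1a4, which trades alanine, serine and cysteine, had levels of 8.37, 8.54 and 8.51. Slc1a5, which brings glutamine into dividing cells, had levels of -0.48, -0.05 and -0.69. Its aging level was the highest, 1.35-fold above young (0.43 ± 0.21) and 1.56-fold above suppressed aging.

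The 2 heavy chains of family Slc3 anchor the light chains in the membrane. Slc3a2, the partner of most light chains measured here, had levels of 9.79, 9.89 and 9.93, so the pools differed by at most 1.10-fold with this probe, and by up to 1.76-fold with a second probe described below. Slc3a1, the partner of Slc7a9 in uptake of cystine and dibasic amino acids, was detected on the aging array only, at a level of -3.63. It was at least 1.49-fold higher there than on the young array and at least 1.24-fold higher than on the suppressed aging array. Both bounds were smaller than the combined error of the spots compared.

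Light chains that pair with Slc3a2 did not share a direction. Slc7a5, also called LAT1, the leucine and large neutral amino acid exchanger, had levels of 0.77 in young, 2.70 in aging and 1.46 in suppressed aging. The aging pool stood above both others, by 3.81-fold over young (1.93 ± 0.20) and by 2.36-fold over suppressed aging, whose difference from aging was -1.24 ± 0.20. Suppressed aging remained 1.61-fold above young. Slc7a8, the other carrier of large neutral amino acids, had levels of 3.03, 2.46 and 2.60 and was highest in young.

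The light chains that export arginine and lysine showed smaller differences. Slc7a6 had levels of 3.00, 2.20 and 2.70, lowest in aging by 1.75-fold against young. Slc7a7 had levels of 2.38, 2.23 and 2.87, highest in suppressed aging by 1.56-fold against aging. Slc7a9, which works with Slc3a1, was not detected on the young array and had levels of -3.52 and -3.33 on the aging and suppressed aging arrays, close to the detection limits. Slc7a6os, the gene on the opposite strand of Slc7a6, had levels of 2.63, 2.25 and 2.42, in the same order of pools as Slc7a6. Both genes were read by their own probes.

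Cationic carriers of family Slc7 take up arginine and lysine without a heavy chain. Slc7a1, the widely used arginine carrier, had levels of 0.90, 1.21 and 1.57, lowest in young and highest in suppressed aging, 1.60-fold apart. Slc7a2 was detected on the young array at -3.77 and on the suppressed aging array at -3.64, and not on the aging array. Slc7a3 had levels of -1.68, -1.05 and -1.74 and was highest in aging, by 1.55-fold over young. Where these 3 arginine carriers were detected in both pools, the pools differed by at most 1.62-fold.

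Slc7a4, an orphan member of the cationic group, stood apart. Its level was -1.64 on the young array and -4.07 and -3.59 on the aging and suppressed aging arrays, where it lay just above the detection limits. It was 5.41-fold lower in aging than in young (-2.44 ± 0.34) and 3.86-fold lower in suppressed aging than in young (-1.95 ± 0.31). Both aging pools were low and lay within 1.40-fold of each other (0.49 ± 0.41).

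Family Slc6 held the osmolyte carriers. Slc6a6, the taurine carrier, had levels of 2.45, 2.96 and 2.87, higher in both aging pools by up to 1.42-fold. Slc6a8, the creatine carrier, had levels of 5.60, 5.38 and 5.97. Slc6a13, which carries GABA and taurine, had levels of 2.80, 3.32 and 2.73 and was highest in aging, by 1.43-fold over young and 1.51-fold over suppressed aging.

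Slc6a12, which carries betaine and GABA and is the direct neighbour of Slc6a13 on chromosome 6, had the opposite order. It was detected in young at a level of -2.09 and in suppressed aging at -1.41, but not in aging, where the spot read -4.80. It was at least 4.68-fold lower in aging than in young and at least 7.51-fold higher in suppressed aging than in aging, while suppressed aging lay 1.60-fold above young (0.68 ± 0.22). Only 1 probe read this gene, so the value in aging rests on 1 spot. Embryos are known to take up betaine through another member of the family, Slc6a20a, which had levels of -1.10, -0.72 and -0.56, within 1.46-fold over the 3 pools. Its near copy and neighbour on chromosome 9, Slc6a20b, was not detected, and cross-reaction between the copies was not checked.

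Glycine carriers were at or near the detection limits. Slc6a9, which brings in glycine for volume control of the early embryo, was not detected on the young array and had levels of -3.08 in aging and -3.72 in suppressed aging. It was at least 2.17-fold higher in aging than in young, a bound of 1.12 against an error of 0.41. Suppressed aging lay 1.56-fold under aging (-0.65 ± 0.35). The young spot itself read -4.26, just under its limit.

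Of 6 neutral amino acid carriers and orphans of family Slc6 compared, 5 were lower in aging than in young. Over all genes, 6959 of 14749 were lower. Only the orphan Slc6a16, given below, was over 2-fold lower, and the difference of Slc6a17 (-0.13 ± 0.21) lay within its error. Slc6a14, a broad carrier of neutral and cationic amino acids that trophectoderm uses before implantation, had levels of 0.34, -0.21 and 0.46. It was lowest in aging, by 1.46-fold against young (-0.55 ± 0.21) and 1.59-fold against suppressed aging. Slc6a7, a proline carrier, had levels of -1.93, -2.74 and -2.70, highest in young by 1.76-fold over aging. Slc6a15 and Slc6a17, carriers of branched-chain amino acids in neurons, had levels of -2.23, -2.62 and -2.55, and of -0.95, -1.08 and -0.80.

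Slc6a16, an orphan of the same family, had the largest difference between detected levels in aging against young. Its level was -1.23 in young and -4.08 in aging, and in suppressed aging the spot read -4.09 and was not detected. It was 7.21-fold lower in aging than in young (-2.85 ± 0.32) and at least 6.49-fold lower in suppressed aging than in young. Young was high and both aging pools lay at the detection limit. Its neighbour on chromosome 7, Slc6a21, was not detected on any array. The monoamine carriers Slc6a2 and Slc6a4 had levels of -1.56, -1.79 and -1.67, and of -1.20, -0.51 and -1.02, all within 1.62-fold.

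Carriers of glutamine and other small neutral amino acids, family Slc38, were higher in aging than in young for 7 of 9 genes compared, with a median of 0.46, and lower in suppressed aging than in aging for 7 of 9, with a median of -0.27. Against young, suppressed aging had a family median of 0.03, which turned to -0.02 with quantile normalization and to -0.01 on the authors' processed values. Family Slc7 had medians of the opposite sign, -0.35 for aging minus young and 0.43 for suppressed aging minus aging. Of its 10 genes compared, 4 were higher and 6 lower in aging than in young, and 8 were higher after suppression. Slc7a3 and Slc7a5 went against both Slc7 medians. Over all genes, 7790 of 14749 were higher in aging than in young and 7322 of 14531 lower after suppression. For Slc7a6, Slc7a8, Slc38a1, Slc38a4 and Slc38a8, probes of the same gene disagreed in direction for aging minus young, as given below. The first 2 medians of Slc38 and both of Slc7 kept their sign under each processing tried.

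Slc38a6, an orphan carrier reported to move glutamine and glutamate, led the family. Its level was 0.27 in young, 1.64 in aging and -0.50 in suppressed aging. Aging was the highest pool, 2.57-fold above young (1.36 ± 0.20) and 4.39-fold above suppressed aging (-2.13 ± 0.21 for suppressed aging minus aging). Slc38a7, a lysosomal glutamine exporter, had levels of 0.87, 1.87 and 1.60, so both aging pools lay above young. It was 2.00-fold higher in aging than in young, at the edge of the 2-fold limit, and centring on the detected probes took the log2 difference to 0.99.

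The widely used glutamine carriers of the family differed less. Slc38a1 had levels of 2.04, 2.35 and 1.69, highest in aging. Slc38a2, which cells raise when amino acids are short, had levels of 0.59, 0.36 and 0.09. Slc38a4, an imprinted gene active from the paternal allele, had levels of 3.17, 3.55 and 3.20. With these probes no pool differed from another by more than 1.57-fold in the 3 genes, which follow each other on chromosome 15, while other probes of Slc38a1 and Slc38a4 differed by up to 2.15-fold, as given below.

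Of the remaining Slc38 genes, Slc38a10 had levels of -0.13, 0.38 and 0.13, and Slc38a8 -2.04, -2.29 and -2.52. Slc38a11 was not detected in young and had levels of -3.73 in aging and -3.10 in suppressed aging. This made suppressed aging at least 2.14-fold higher than young. The second probe of Slc38a11 was undetected on all 3 arrays, at -6.43, -6.56 and -6.15, and so did not show this difference. Slc38a9, the lysosomal arginine sensor of mTORC1, had levels of -2.16, -1.70 and -1.16. It was lowest in young and highest in suppressed aging, which was 2.01-fold above young (1.01 ± 0.23).

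Of the 4 carriers of family Slc36, 2 could be compared, and both were higher in both aging pools than in young. Slc36a1, also called PAT1, which releases small amino acids from the lysosome and takes part in mTORC1 activation, had levels of -3.68 in young, -1.09 in aging and -2.57 in suppressed aging. It was 6.02-fold higher in aging than in young (2.59 ± 0.29), 2.79-fold lower in suppressed aging than in aging (-1.48 ± 0.24), and 2.16-fold higher in suppressed aging than in young. The young level lay close to the detection limit, and with normexp correction the 3 differences were 0.87, -0.58 and 0.30. Slc36a3, whose wider use is in testis, was not detected in young and had levels of -2.52 in aging and -2.24 in suppressed aging. It was at least 3.20-fold and at least 3.87-fold higher there than in young, and with normexp correction the log2 difference of aging minus young was 0.25. The gene between them on chromosome 11, Slc36a2, was not detected.

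Family Slc43 holds large neutral amino acid carriers and a purine carrier. Slc43a1, a leucine carrier, had levels of -1.26 in young, -3.22 in aging and -3.59 in suppressed aging. Young was high and both aging pools low, by 3.88-fold for aging (-1.96 ± 0.25) and 5.03-fold for suppressed aging (-2.33 ± 0.32). Slc43a2 had levels of -0.31, -0.48 and -0.41. Slc43a3, which carries purine bases, had levels of 3.85, 4.46 and 3.86, highest in aging by 1.52-fold over each of the other pools.

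A second reading of the same pool came from genes with several probes, which are no replicates of a condition. Of 24 genes with 2 or more probes, 15 could be compared for aging against young, and all probes pointed the same way in 9 and not in 6. For suppressed aging against aging, 10 of 15 pointed the same way, and for suppressed aging against young 9 of 16. Between the lowest and highest probe of a gene, the median gap in the log2 difference was 0.81 for aging against young and 0.42 for each of the other comparisons, larger than the median scanner error of 0.21. The spread between probes of a gene was therefore larger than the scanner error used above.

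Slc36a1 was the only gene whose probes all lay over 2-fold apart in the same direction in aging against young. Its second probe read -3.58, -2.32 and -2.90, a difference of 1.26 ± 0.31 for aging minus young and of -0.58 ± 0.26 for suppressed aging minus aging. The direction was shared, and the size was smaller than with the first probe.

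The other 2 probes of Slc38a6 read -2.61, -0.17 and -1.35, and -2.71, -2.10 and -2.19. All 3 probes had their highest value in aging, with aging minus young at 1.36, 2.44 and 0.62, and suppressed aging minus aging at -2.13, -1.18 and -0.09. Against young, however, suppressed aging was lower with the first probe and higher with the others.

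For Slc43a1 the second probe did not share the difference. It read -3.48, -3.16 and, undetected, -6.26, so aging was not below young (0.32 ± 0.32). For Slc38a8 the second probe was undetected in young and read -0.50 in aging and -2.08 in suppressed aging, at least 12.9-fold higher in aging than in young, whereas the first probe lay 1.19-fold lower. Probes of 1 gene can lie in different exons or transcript ends, and which of the readings holds for these 2 genes was not tested.

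Other pairs differed by less. The second probe of Slc3a2 read 4.91, 5.73 and 5.10, 1.76-fold higher in aging than in young, where the first lay within 1.08-fold. Slc38a1 had another probe at 2.16, 1.05 and 1.39, 2.15-fold lower in aging, against the direction of its other probes. The second probe of Slc38a4, at 1.28, 0.54 and 1.10, also ran against the first. Slc1a1, Slc6a6, Slc6a8 and Slc43a2 kept 1 direction for aging against young with both probes, at second-probe differences of 0.69, 0.17, -0.25 and -0.61. The second probe of Slc7a6 read 2.14, 2.14 and 2.22 and so did not share the lower level in aging. Slc7a8 read -3.15, -2.77 and -2.60 with its second probe, lowest in young, where the first was highest. For Slc6a7 the second probe was detected in young only, at -2.78, the pool that was also highest with the first. Slc7a5, Slc7a4, Slc6a12, Slc6a16, Slc6a9, Slc36a3, Slc38a7 and Slc38a9 had a single probe.

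**Figure D3:**
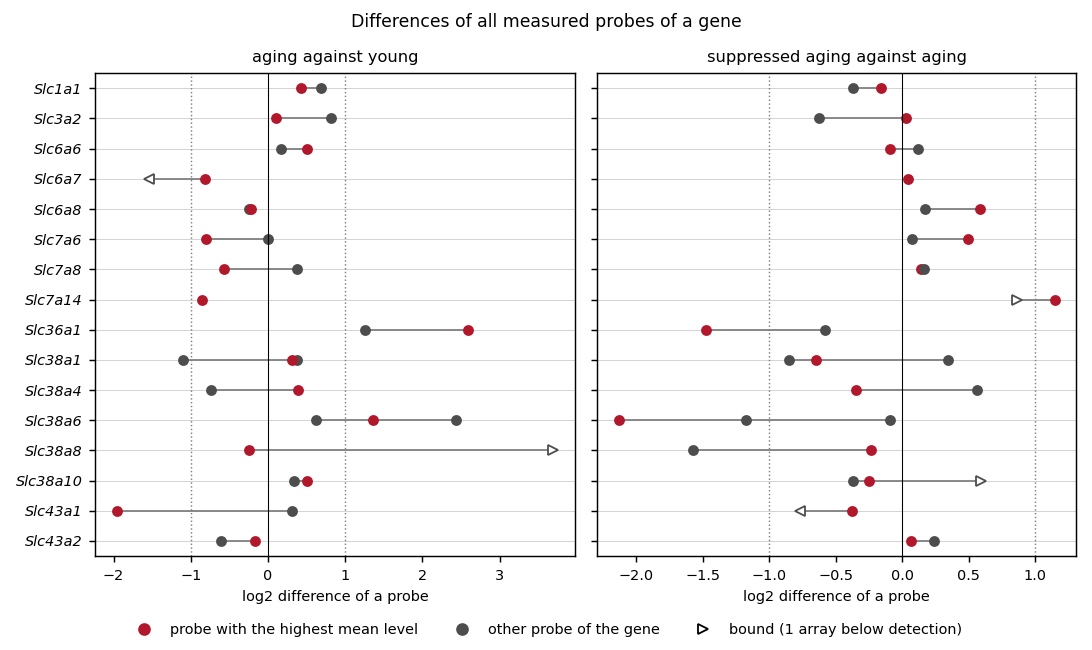
Log2 difference (horizontal axis) of each measured probe of genes with 2 or more probes, for aging minus young (left) and suppressed aging minus aging (right). Red points are the probe with the highest mean level, grey points the other probes, open triangles bounds, and dotted lines 2-fold. The lines that join the probes of Slc38a8 and Slc43a1 cross 0 on the left, while those of Slc36a1 and Slc38a6 do not.

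Promoters were read for sequences that bear on the lysosomal carriers and on the amino acid response. The extended E-box TCACGTG holds the core bound by TFEB and related factors of lysosomal genes, and TGATGNAA is the form bound by ATF4 with C/EBP partners when amino acids are short. Promoters from RefSeq (build GRCm38.p6, 250 bases before to 50 after the start) were at hand for 46 of the 64 genes, and both strands were searched. TCACGTG lay in 3.77% of all 32851 promoters, or 4.29% of genes, and in 4 of the 46 transporter genes, namely Slc36a1, Slc38a7, Slc7a14 and Slc1a6. The first 3 code for lysosomal carriers and are shown from 90 bases before to 10 after the start, with the E-box in capitals. In Slc36a1 (chr11:55204250-55204349, plus strand) the box lies 31 bases before the start and again across the start, where 2 overlapping matches on opposite strands form a palindrome. In Slc38a7 (chr8:95853482-95853581, minus strand) and Slc7a14 (chr3:31310310-31310409, minus strand) it occurs at a single position.
Slc36a1: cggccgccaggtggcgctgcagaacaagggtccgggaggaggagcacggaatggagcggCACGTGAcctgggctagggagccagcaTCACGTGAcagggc
Slc38a7: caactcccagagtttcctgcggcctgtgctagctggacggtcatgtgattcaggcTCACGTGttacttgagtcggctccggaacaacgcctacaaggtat
Slc7a14: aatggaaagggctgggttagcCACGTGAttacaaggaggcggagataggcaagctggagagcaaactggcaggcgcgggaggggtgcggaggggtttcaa

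These 3 carriers did not share a direction. Slc36a1 and Slc38a7 were higher in aging than in young, as given above. Slc7a14, a lysosomal cationic amino acid carrier, had levels of -1.26 in young, -2.11 in aging and -0.97 in suppressed aging. It was lowest in aging, 1.81-fold under young (-0.85 ± 0.22) and 2.22-fold under suppressed aging (1.15 ± 0.22 for suppressed aging minus aging). Its second probe was detected only in suppressed aging, at -3.46.

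TGATGNAA lay in 3.97% of all promoters, or 4.51% of genes, and in 4 transporter genes, namely Slc7a11, Slc1a4, Slc7a7 and Slc6a21. Slc7a11 and Slc1a4, both known targets of ATF4, are shown over the same window with the motif in capitals. Slc7a11 (chr3:50443604-50443703, minus strand) holds it on both strands, and Slc1a4 (chr11:20332704-20332803, minus strand) across the start.
Slc7a11: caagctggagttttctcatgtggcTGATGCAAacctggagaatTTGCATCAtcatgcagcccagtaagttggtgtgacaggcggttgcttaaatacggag
Slc1a4: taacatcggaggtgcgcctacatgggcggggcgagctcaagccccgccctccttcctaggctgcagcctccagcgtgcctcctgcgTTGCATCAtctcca

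Slc1a4 differed by at most 1.13-fold between pools. Slc7a11 was undetected on all 3 arrays, so no difference could be measured for it. A match says only that the letters are there, and the promoters of Slc7a5, Slc7a4, Slc1a5, Slc6a6 and Slc38a1 had no entry.

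Genes of the amino acid response, namely Atf4, its upstream kinase and initiation factor and genes that respond with it, were all measured, 22 of 22. In aging against young, 2 of them (9.09%) were over 2-fold apart, both higher, against 18.8% of all genes, with a median of 0.15 against 0.04. They were Chac1, an enzyme that degrades glutathione, at -3.01, -1.13 and -2.15, and Ddit4, an inhibitor of mTORC1, at 2.50, 3.92 and 3.55. Both were highest in aging. Over the whole list, 12 genes were higher and 10 lower in aging than in young. Among the lower ones were Trib3 (-0.77), Ddit3 (-0.67) and Sesn2 (-0.67), all within 2-fold. Atf4 itself had levels of 6.63, 6.63 and 7.84 and so was 1.22 log2 units higher in suppressed aging than in aging. In that comparison 4 genes (18.2%) were over 2-fold apart, against 17.2% of all genes, and Chac1, Cebpb and Vldlr were the lower ones. Chac1 and Cebpb had 1 probe, while Atf4 and Vldlr had 2, of which the brighter is given. With the mean over probes the count fell to 2, and Atf4 and Vldlr were no longer over 2-fold apart. Asns, the asparagine synthetase that is raised when amino acids are short, had levels of 4.04, 4.20 and 4.10. The list as a whole was centred near 0, with medians of -0.01 for suppressed aging minus aging and -0.09 for suppressed aging minus young.

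Genes that carry the amino acid signal to mTORC1 were matched for 34 of 36, and 33 could be compared. Over 2-fold apart were 5 in aging against young, 3 in suppressed aging against aging and 7 in suppressed aging against young, with medians of 0.13, -0.03 and 0.15. These were 15.2%, 9.09% and 21.2% of the list, against 18.8%, 17.2% and 16.1% of all genes. Higher in aging than in young were Kptn (-1.52, 0.17 and -0.53), Mios (-2.81, -1.72 and -1.41) and Lamtor5 (0.81, 1.96 and 1.08). Among the lower ones was Wdr59 (-1.97, -3.49 and 1.82), lowest in aging and highest in suppressed aging. Castor1, a cytosolic arginine sensor, was lowest in young and highest in suppressed aging at -2.07, -1.61 and -0.67, the order seen for the lysosomal arginine sensor Slc38a9.

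Other carriers of amino acids and peptides, outside the 7 families, were matched for 21 of 21. Over 2-fold apart in aging against young were 6 of 17, or 35.3% against 18.8% of all genes, with a median of 0.47 against 0.04. Of these 6 genes, 3 were higher and 3 lower in aging. The count was again 6 of 17 in suppressed aging against aging, or 35.3% against 17.2%, with a median of -0.30 against -0.00. Here 1 gene was higher and 5 were lower in suppressed aging. Slc16a10, a carrier of aromatic amino acids, had levels of -2.88, -1.13 and -2.14. Ctns, which exports cystine from the lysosome, had levels of -0.65, 0.51 and -0.20. Both were highest in aging. Slc15a2, the high-affinity peptide carrier, was highest in young and lower in both aging pools, at 5.70, 4.44 and 4.09. No list is called different from other genes.

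**Figure D4:**
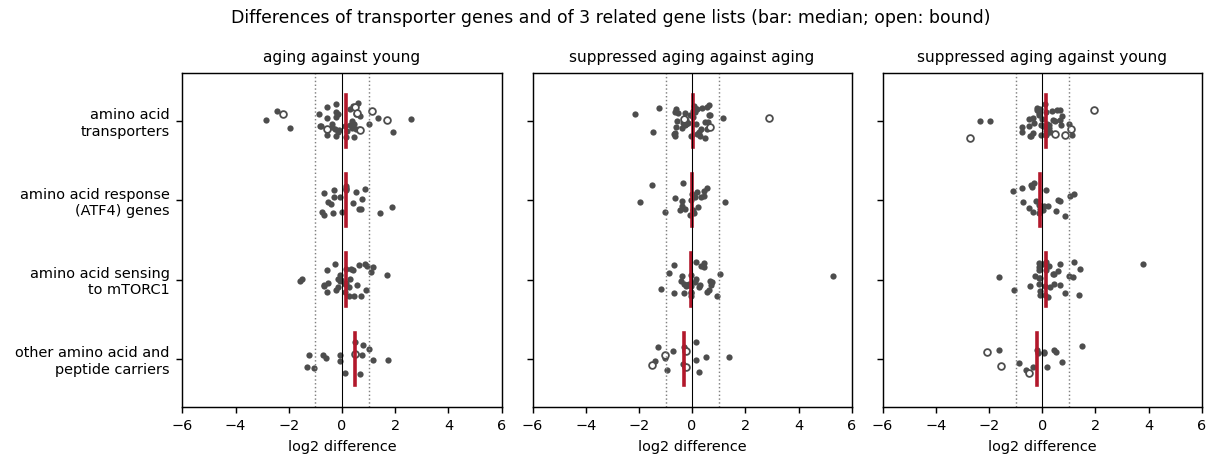
Log2 difference (horizontal axis) of each gene of the amino acid transporters and of 3 related lists, for aging minus young (left), suppressed aging minus aging (middle) and suppressed aging minus young (right). Each point is a gene, open points are bounds, red bars are medians and dotted lines mark 2-fold. The medians of all lists lie between -0.30 and 0.47, inside the 2-fold lines.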

How the data were processed

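For every array the authors deposited spot intensities from the scanner (linear, not log2), background-subtracted and detrended by Agilent Feature Extraction 12.0.3.1, and a table of processed values. That table was checked to be the same intensity times 1 factor per array (3.46, 3.34 and 3.96). It is not stated on what the factors rest. The labels name low-input labelling of total RNA, and the methods name global PCR amplification of mRNA, which can widen differences of scarce transcripts. All 3 arrays were on 1 slide and in 1 scan. The array design is of an older mouse build than the gene table (GRCm38.p6), so array coordinates are not given.

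Control spots and outlier spots (100, 85 and 118) were left out, no spot was saturated, and 58.4%, 58.7% and 56.4% of probes were above background. Probes were named through their RefSeq mRNA accession. The log2 intensity minus the 75th percentile of each array was used, and each gene was read by the probe with the highest mean level. Genes past 2-fold or 5-fold, bounds included, were counted. Named were all members past 2-fold, members with a known role in early embryos and members with several measured probes. The remaining detected members are given too, except that the values of 1 member and of 1 gene of the related lists are not reported here. Members and lists were chosen with earlier results of these data known. The counting was tested on simulated data. Alternatives were normexp on the median spot and background intensity (limma 3.58.1, R 4.3.3), quantile normalization, centring on the median of detected probes, the authors' values, outlier spots kept, 2 filters and the mean over probes. Python 3.11.15, NumPy 2.4.6, pandas 2.3.3 and Matplotlib 3.10.9 were used.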

Additional observations from a re-analysis of the deposited data

How the results depend on the processing

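No paired analysis was possible because a condition was a single array, and for the same reason no array was left out. No gene over 2-fold apart changed sign wherever an alternative gave it a value.

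Counts of transporter genes over 2-fold apart depended on how dim probes were treated. In aging against young, the 10 became 4 with normexp and 18 with all probes and no filter, the 6 higher ones became 3 with normexp, and the 3 over 5-fold became 0 with normexp and 5 without a filter. The median of 0.15 became -0.12 without a filter, where the median of all genes was -0.08. In suppressed aging against aging, the 5 became 2 with normexp and 9 without a filter. The 2 higher ones became 0 with normexp, 1 with only probes detected on both arrays and 5 without a filter, and the 1 over 5-fold became 0, 0 and 2. In suppressed aging against young, the 7 became 0 with normexp, 4 with probes detected on both arrays and 12 without a filter, and the 4 higher ones became 0, 2 and 7. The 2 over 5-fold became 0 with normexp and 1 with quantile normalization, with the authors' values and with probes detected on both arrays.

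Counts in the related lists were lower with normexp. In aging against young they became 1 for each list. In suppressed aging against aging they became 1 for mTORC1 sensing and 0 for other carriers, and the mean over probes gave 2 for the ATF4 list and 1 for mTORC1 sensing. In suppressed aging against young, normexp gave 1, 4 and 1, the mean over probes gave 1 for the ATF4 list, and probes detected on both arrays gave 2 for other carriers. Normexp adds 50 to each intensity, so dim probes lie closer together by construction. The number of arrays limits the precision.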
